A study of Mus musculus with 35 samples.

Results

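The costimulatory receptors described here were 6 named genes of the 48709 counted in each library: Tnfrsf4 (the receptor OX40), Tnfrsf9 (4-1BB), Tnfrsf18 (GITR), Cd27, Cd28 and Icos. They were chosen by name, and all 6 passed the filter on low counts and were among the 13819 genes tested. RNA came from OT-I CTLs, which are cytotoxic effector CD8+ T cells grown from mice whose T cells carry a transgenic receptor for an ovalbumin peptide. CD8+ T cells were purified from spleen, primed on anti-CD3 with anti-CD28 antibody and IL-2, and expanded for several days in IL-2, so the cells of every group had received IL-2 and a CD28 signal before the experiment began. The untreated cells that went into the culture (0 h) formed one group. The other 6 groups were kept for 24 h in medium of pH 7.4, 7 or 6.6, where IL-2 was either left out or added at 200 IU/mL, and all 7 groups held 5 replicates numbered 1 to 5. The sources used here give no age or sex for the OT-I mice and do not say which animals or cultures a number stands for. The p-values therefore measure the spread between these samples that is left after differences between replicate numbers are fitted. Dead cells were removed on Ficoll before extraction, and the RNA therefore describes the cells that were alive in each condition.

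T cell costimulation comes from 2 receptor families. OX40, 4-1BB, GITR and CD27 belong to the tumour necrosis factor receptor family. When their ligands cluster them, they recruit TRAF adaptor proteins, which feed the canonical and non-canonical NF-kB pathways and favour survival. CD28 and ICOS belong to the immunoglobulin family, bind B7 proteins on antigen-presenting cells, and dock PI3-kinase on their cytoplasmic tails. CD28 and CD27 are present on naive T cells, whereas 4-1BB, OX40, GITR and ICOS are known as receptors that appear or increase after activation. What was measured is the receptor transcript, not the protein on the cell surface.

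On GRCm38 (GENCODE M21), Tnfrsf4 lies at chr4:156013843-156016612 and Tnfrsf18 at chr4:156026164-156028895, both on the plus strand, with 9.551 kb between them. Tnfrsf9 is on the same chromosome, at chr4:150914562-150946102 on the plus strand, 5068 kb away from Tnfrsf4. Cd28 (chr1:60716800-60773359) and Icos (chr1:60977927-61000320) stand 204.6 kb apart on the plus strand, with Ctla4, the inhibitory member of their family, between them. Cd27 lies at chr6:125232622-125237010 on the minus strand. Of the exon bases of Tnfrsf18, 27.17% face the antisense gene Gm16008, and 5.541% of those of Cd27 overlap Mir8113 on the same strand. Gm16008 had 1 to 15 counts per library with a median of 5, whereas Tnfrsf18 had at least 1122. The setting used for strand when the authors counted is not given in the sources used here.

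The stretches before the RefSeq start sites of the 4 members of the tumour necrosis factor receptor family are shown. They are the 250 bases before the start site, 5′ to 3′ on the gene's strand, on GRCm38.p6. Capitals mark matches, on either strand, to 4 motifs that were searched from 250 bases before to 50 bases after the start: TTCNNNGAA (STAT5), the NF-kB motif (GGG, any 5 bases, then CC), CACGTG (E-box) and TGACGTCA (CRE). Tnfrsf9 has 2 windows in the table. The one printed, chr4:150927749-150927998, holds a STAT5 match at positions -136 to -128 and 2 overlapping NF-kB matches from -43 to -33. The other, chr4:150919905-150920154, held no match. Both lie inside the Tnfrsf9 span given above, and neither precedes its first base. The Tnfrsf18 stretch is chr4:156026072-156026321, with a STAT5 match from -99 to -91. The Tnfrsf18 span given above begins at 156026164, so this match lies inside that span and not before its first base. The Tnfrsf4 stretch is chr4:156013445-156013694, with an E-box match from -74 to -69. The Cd27 stretch is chr6:125237028-125237277 on the minus strand, with 2 overlapping NF-kB matches from -84 to -74.
Tnfrsf9: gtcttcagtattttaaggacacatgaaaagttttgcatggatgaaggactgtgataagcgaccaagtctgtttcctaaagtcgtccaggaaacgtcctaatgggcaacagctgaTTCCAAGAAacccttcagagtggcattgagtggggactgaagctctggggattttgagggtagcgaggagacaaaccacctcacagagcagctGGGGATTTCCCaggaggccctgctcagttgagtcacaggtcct
Tnfrsf18: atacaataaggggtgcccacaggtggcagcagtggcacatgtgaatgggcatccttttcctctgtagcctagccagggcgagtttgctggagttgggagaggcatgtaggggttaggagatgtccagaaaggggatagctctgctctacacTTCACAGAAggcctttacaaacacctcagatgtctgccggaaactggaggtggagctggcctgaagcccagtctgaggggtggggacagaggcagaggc
Tnfrsf4: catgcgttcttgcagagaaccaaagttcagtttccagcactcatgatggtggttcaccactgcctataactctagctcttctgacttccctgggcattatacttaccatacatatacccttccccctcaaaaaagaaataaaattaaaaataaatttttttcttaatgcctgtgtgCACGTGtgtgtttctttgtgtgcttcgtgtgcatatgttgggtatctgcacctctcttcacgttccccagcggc
Cd27: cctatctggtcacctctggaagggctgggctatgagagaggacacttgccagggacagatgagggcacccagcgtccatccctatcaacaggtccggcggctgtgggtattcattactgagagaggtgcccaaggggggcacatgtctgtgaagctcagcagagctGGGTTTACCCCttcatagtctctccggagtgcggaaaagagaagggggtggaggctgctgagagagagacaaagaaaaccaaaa

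Over all 32851 RefSeq windows of this length, 8.298% held the STAT5 letters, 50.79% the NF-kB letters, 7.15% the E-box letters and 1.79% the CRE letters. A match is a description of these letters and is not a bound site. Cd28 and Icos had no window among those searched.

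The total count on genes ranged from 16721319 to 34033340 per library, and the lowest count of any member in any library was 73 (Tnfrsf4). Within each group, the mean correlation of a library with its fellows over log2 CPM (counts scaled to library size) ran from 0.978 to 0.992. The label CD8+ T cell was checked against markers. Cd8a was between 673.5 and 1596 CPM in every library, Cd3e between 373.4 and 630.7 CPM, and Cd4 never exceeded 2.483 CPM and was at 0 in 10 libraries. The B cell genes Ms4a1 and Pax5 were at 0 in all 35 libraries. The NK cell gene Ncr1 was at 0 in 25 libraries, and the myeloid genes Lyz2 and Csf1r were at 0 in 28 and 29 libraries, with no value over 0.2863 CPM. Other genes of these lists were counted in every library: Klrb1c (NK cells) at 8.27 to 94.9 CPM, Cd68 and Itgax (myeloid and dendritic cells) at 4.95 to 31.9 and 1.67 to 24.9 CPM, and Cd79b (B cells) at 1.02 to 5.91 CPM.

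Per kilobase of exon, the scale on which different genes can be compared, Tnfrsf9 spanned the widest range of the 6 receptors. It was the highest member at 0 h, at 426.5 CPM per kb ± 102.9 (SD, n = 5), and still the highest at pH 7.4 with IL-2, at 209.9 CPM per kb. Without IL-2 at pH 7.4 it was at 7.58 CPM per kb, and only Tnfrsf4 was lower, at 4.89 CPM per kb. Cd27 was then the highest, at 59.5 CPM per kb, followed by Cd28 at 49.03 and Icos at 43.2. The members therefore changed rank between conditions. The mean of the highest group was 72.28 times that of the lowest for Tnfrsf9, 4.032 times for Cd27, 3.476 times for Tnfrsf4, 2.854 times for Cd28, 2.809 times for Tnfrsf18 and 1.775 times for Icos.

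**Figure D1:**
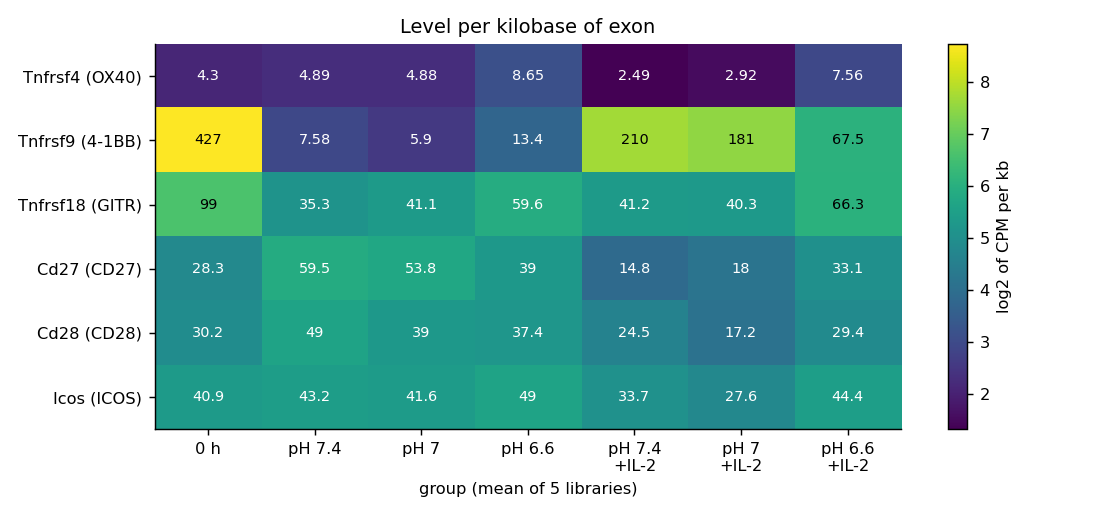
Mean level of each receptor transcript in the 7 groups, as CPM per kilobase of exon (numbers in the cells, mean of 5 libraries; colour is the log2 of that level). Tnfrsf9 goes from 427 at 0 h to 5.9 at pH 7 without IL-2, while Icos stays between 27.6 and 49.

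**Figure D2:**
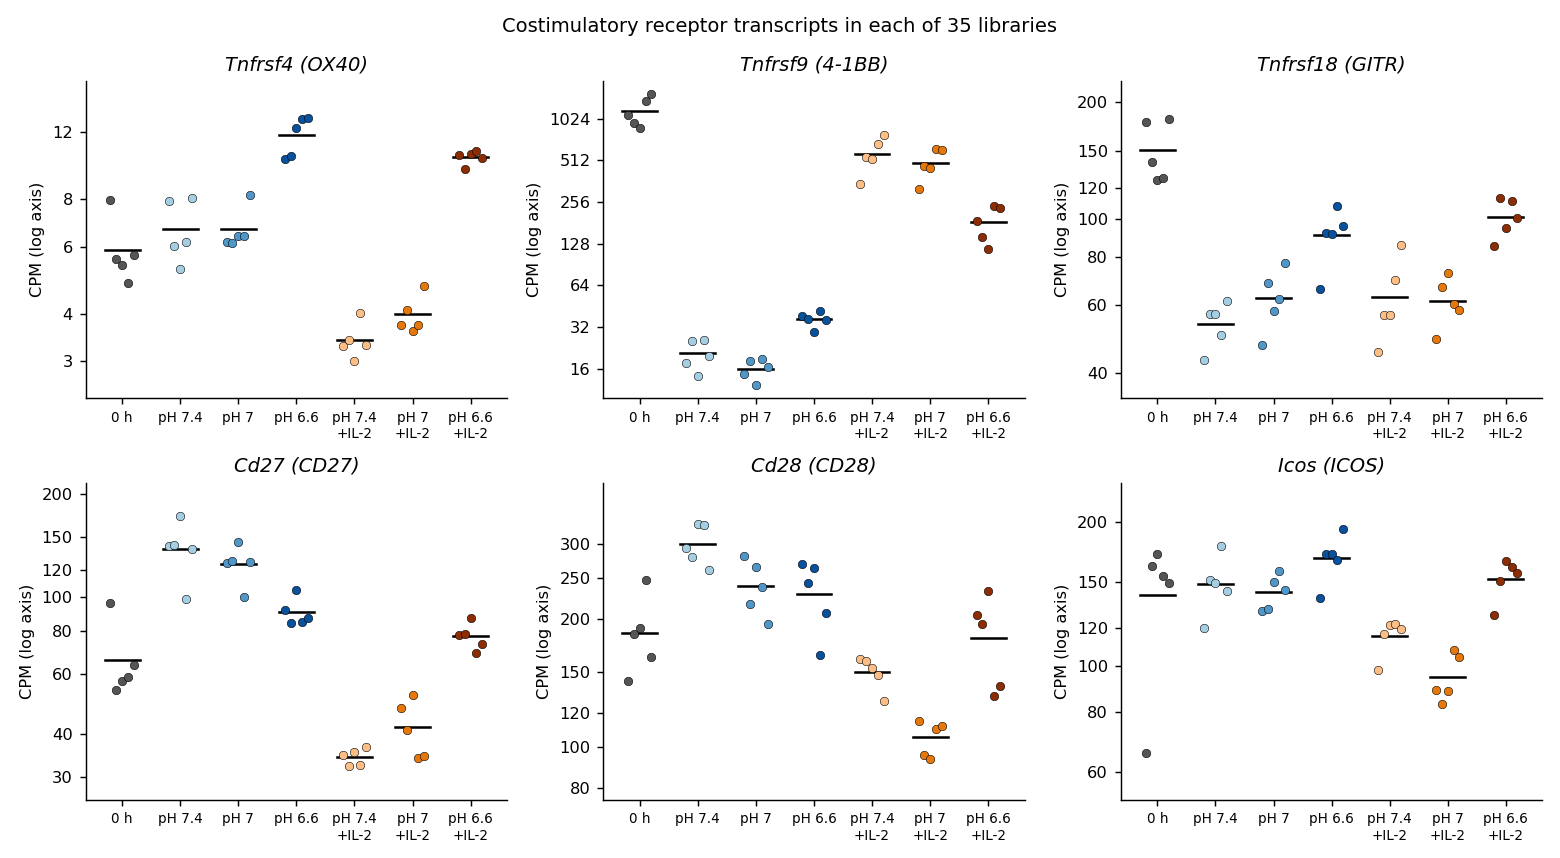
CPM of each receptor in every library on a log axis, by group (points, replicates 1 to 5 from left to right; black lines, group means). For Tnfrsf9 the groups with IL-2 lie above those without at every pH, and for Cd27 the order is the opposite at pH 7.4 and pH 7.

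The effect of IL-2, the growth factor of these cells, was compared first. At pH 7.4, cells given IL-2 had 27.5 times as much Tnfrsf9 transcript as cells not given it, and less Cd27, Cd28, Tnfrsf4 and Icos. Tnfrsf18 was the member that did not pass the test. Of all genes tested, 80.4% passed the threshold of an adjusted p of 0.05 in this comparison, and 5 of the 6 members did, a share close to that of all genes. In bulk RNA, fewer cells of a type and less RNA per cell cannot be told apart.

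Tnfrsf9 (4-1BB, whose signal favours survival of activated CD8+ T cells) was at 17.7, 25.5, 14.3, 25.98 and 19.7 CPM in the 5 libraries at pH 7.4 without IL-2. With IL-2 it was at 346, 538, 522, 671 and 780.0 CPM. Every library with IL-2 was thus far above every library without it. The log2 fold change was 4.78 ± 0.16 (SE; edgeR quasi-likelihood test, adjusted p = 9.96e-23), with the rise in 5 of 5 same-numbered pairs, and its size exceeded that of 98.8% of the genes tested. For the other members called, that share was 84.6% for Cd27, 59.0% for Cd28, 57.1% for Tnfrsf4 and 24.4% for Icos. At 0 h the 5 Tnfrsf9 values were 1085, 949.7, 872, 1367 and 1532 CPM, above those of all other groups. After 24 h without IL-2 at pH 7.4 the level had dropped to a ratio of 0.0179 of the 0 h level, and with IL-2 to 0.491.

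Cd27, a receptor of naive and memory T cells, showed the opposite pattern. Its 5 values at pH 7.4 without IL-2 were 141, 142, 173, 99.2 and 138 CPM, and those with IL-2 were 34.8, 32.2, 35.6, 32.6 and 36.6 CPM. The groups did not overlap, and those with IL-2 spread over less than 5 CPM. The log2 fold change was -1.995 ± 0.11 (adjusted p = 1.3e-17), a ratio of 0.251. At 0 h it was at 53.8 to 63.5 CPM in 4 libraries and at 96.1 CPM in replicate 1. Against 0 h, Cd27 rose without IL-2 (log2 fold change 1.07, adjusted p = 7.98e-11) and fell with it (-0.93, adjusted p = 5.6e-09).

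Cd28, the receptor whose antibody primed these cells, had 294, 279, 335, 332 and 261 CPM at pH 7.4 without IL-2. With IL-2 the values were 161, 159, 153, 148 and 128 CPM, below all of those without. The log2 fold change was -1.003 ± 0.13 (adjusted p = 3.05e-08), which is a ratio of 0.499. Icos, the other receptor of that family and one induced by activation, fell less. It was at 120.05, 151, 149, 178 and 143 CPM without IL-2 and at 98.0, 117, 122, 122 and 119 CPM with it, so the ranges overlapped, yet each pair fell. Its log2 fold change was -0.36 ± 0.11 (adjusted p = 0.00472).

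Tnfrsf4 (OX40), the lowest of the 6 per kilobase in all 7 groups, was at 7.91, 6.01, 5.25, 6.17 and 8.04 CPM without IL-2 at pH 7.4. With IL-2 it was at 3.28, 3.401, 2.996, 4.01 and 3.295 CPM, with no overlap. The log2 fold change was -0.96 ± 0.13 (adjusted p = 2.4e-08). Tnfrsf18 (GITR) lies near Tnfrsf4 on chromosome 4, with 2 annotated genes between them. Tnfrsf18 was at 43.2 to 61.5 CPM without IL-2 and 45.5 to 85.7 CPM with it. These ranges overlapped, and the log2 fold change of 0.21 had a 95% interval from -0.03 to 0.46 (adjusted p = 0.107).

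At pH 7, where 77.2% of all genes passed the threshold, IL-2 had effects on the members of similar size: 4.92 for Tnfrsf9, -1.59 for Cd27, -1.17 for Cd28, -0.74 for Tnfrsf4 and -0.59 for Icos on the log2 scale, all called. Tnfrsf18 was at -0.01, with an interval from -0.26 to 0.23. At pH 6.6, 23.7% of all genes were called, and Tnfrsf9 was the member with a call that held under every alternative. It rose from 38.7, 36.5, 29.7, 41.9 and 36.1 CPM without IL-2 to 188, 144, 118, 239.5 and 230.1 CPM with it. That rise was 4.91-fold, or 2.30 ± 0.15 on the log2 scale (adjusted p = 2.42e-13), and its size exceeded that of 99.3% of genes. Cd28 was at -0.35 (adjusted p = 0.0478), a call that was lost in 8 of the alternatives listed at the end, among them without replicate 1 (-0.31, adjusted p = 0.148). For Cd27 the value was -0.23 (interval -0.45 to -0.02, adjusted p = 0.0994), for Tnfrsf4 -0.19 (-0.43 to 0.04), for Icos -0.14 (-0.37 to 0.08) and for Tnfrsf18 0.16 (-0.08 to 0.41).

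**Figure D3:**
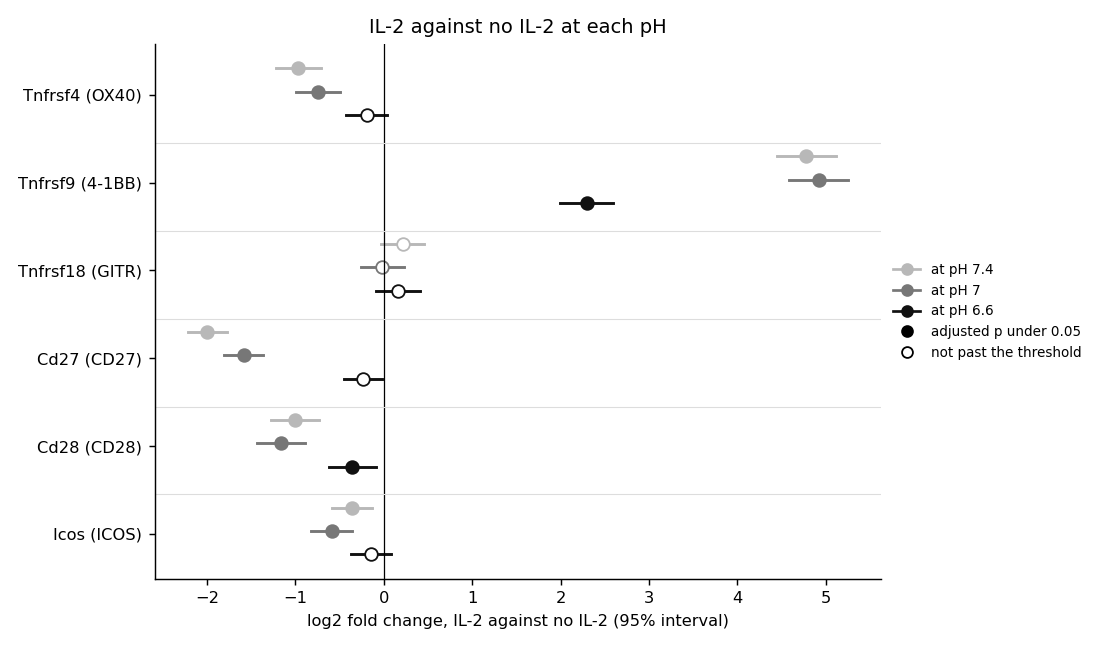
Log2 fold change of each receptor between cells given IL-2 and cells not given it, at pH 7.4 (light), pH 7 (grey) and pH 6.6 (black). Points are estimates of the edgeR model, lines their 95% intervals, and filled points passed an adjusted p of 0.05. Tnfrsf9 stands at 4.78, 4.92 and 2.30, and the other members at pH 6.6 lie between -0.35 and 0.16.

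Acid was compared next, in the cells given IL-2. At pH 6.6 against pH 7.4, Tnfrsf4 rose 3.03-fold, Cd27 2.24-fold, Tnfrsf18 1.63-fold and Icos 1.32-fold, while Tnfrsf9 fell to a ratio of 0.321. The members called were thus 4 higher and 1 lower, in a comparison where 76.3% of all genes were called. In size, these changes exceeded those of 84.8% of the genes tested for Tnfrsf9, 84.0% for Tnfrsf4 and 71.6% for Cd27. The share was 49.9% for Tnfrsf18 and 30.6% for Icos. Cd28 had a log2 fold change of 0.26 (interval -0.01 to 0.52, adjusted p = 0.0774). It passed the threshold under 5 of the 11 alternatives, among them without replicate 4, where it was 0.34 (adjusted p = 0.00797), and without replicate 3 it was 0.16 (adjusted p = 0.348).

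The Tnfrsf4 values at pH 6.6 with IL-2 were 10.5, 9.63, 10.5, 10.7 and 10.3 CPM, a narrow band more than 5 CPM above the highest library at pH 7.4 with IL-2. The log2 fold change was 1.601 ± 0.12 (adjusted p = 2.35e-13), with pairs between 1.401 and 1.79. Cd27 was at 78.0, 78.1, 87.05, 69.0 and 73.3 CPM at pH 6.6 with IL-2, again without overlap with pH 7.4. Its log2 fold change was 1.16 ± 0.11 (adjusted p = 1.29e-11). Tnfrsf18 was at 85.1, 113, 95.1, 112 and 101 CPM, and the lowest of these lay just under the highest library at pH 7.4 with IL-2, replicate 5. Its log2 fold change was 0.70 ± 0.12 (adjusted p = 4.1e-06). Icos was at 128 to 166 CPM, above every library at pH 7.4 with IL-2, and rose by 0.37 to 0.45 in each of the 5 pairs (0.40 ± 0.11, adjusted p = 0.00207). Tnfrsf9, at 118 to 239.5 CPM, was below every pH 7.4 library with IL-2 (log2 fold change -1.64 ± 0.14, adjusted p = 2.88e-12). The pairs of Tnfrsf9 ranged from -2.14 to -0.88.

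At pH 7 with IL-2, 19% of all genes passed and 1 of the 6 members did. Cd28 was at 115, 95.3, 93.7, 110.2 and 112 CPM, below every pH 7.4 library with IL-2, and its log2 fold change was -0.50 ± 0.13 (adjusted p = 0.00747). That call was lost without replicate 2 (-0.45, adjusted p = 0.0735) or replicate 3 (-0.45, adjusted p = 0.0581). The other members lay between -0.28 (Icos) and 0.27 (Cd27). Cd28 thus stood lowest at pH 7 among the groups with IL-2, and its levels there and at pH 6.6, 132 to 232 CPM, did not overlap. The difference between pH 7 and pH 6.6 with IL-2 was not tested.

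Without IL-2, pH 6.6 raised Tnfrsf4 (0.83 ± 0.12, adjusted p = 2.47e-07), Tnfrsf9 (0.84 ± 0.15, adjusted p = 6.66e-06) and Tnfrsf18 (0.76 ± 0.12, adjusted p = 2.2e-06) on the log2 scale. Cd27 fell by 0.60 ± 0.10 (adjusted p = 6.83e-06) and Cd28 by 0.39 ± 0.13 (adjusted p = 0.00916). Without replicate 4 the value for Cd28 was -0.26 (adjusted p = 0.0488). In this comparison 67.0% of all genes were called. The Tnfrsf4 values at pH 6.6 were 10.2, 10.4, 12.3, 13.01 and 13.1 CPM, and those of Tnfrsf18 were 66.1, 92.2, 91.5, 108 and 96.2 CPM. Neither range met that of pH 7.4 without IL-2. Cd27, at 92.0, 84.2, 105, 84.7 and 87.2 CPM, and Cd28, at 269, 242, 263, 164 and 206 CPM, both overlapped with pH 7.4 and fell in 5 of 5 pairs. Icos was at 0.18 (interval -0.04 to 0.41, adjusted p = 0.146). In the comparison of pH 7 with pH 7.4 without IL-2, 1.68% of all genes were called and no member was. The members lay between -0.35 (Tnfrsf9) and 0.22 (Tnfrsf18), and 2 of them, Tnfrsf9 and Cd28, had an unadjusted p under 0.05 in edgeR. DESeq2 called 0 members as well.

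**Figure D4:**
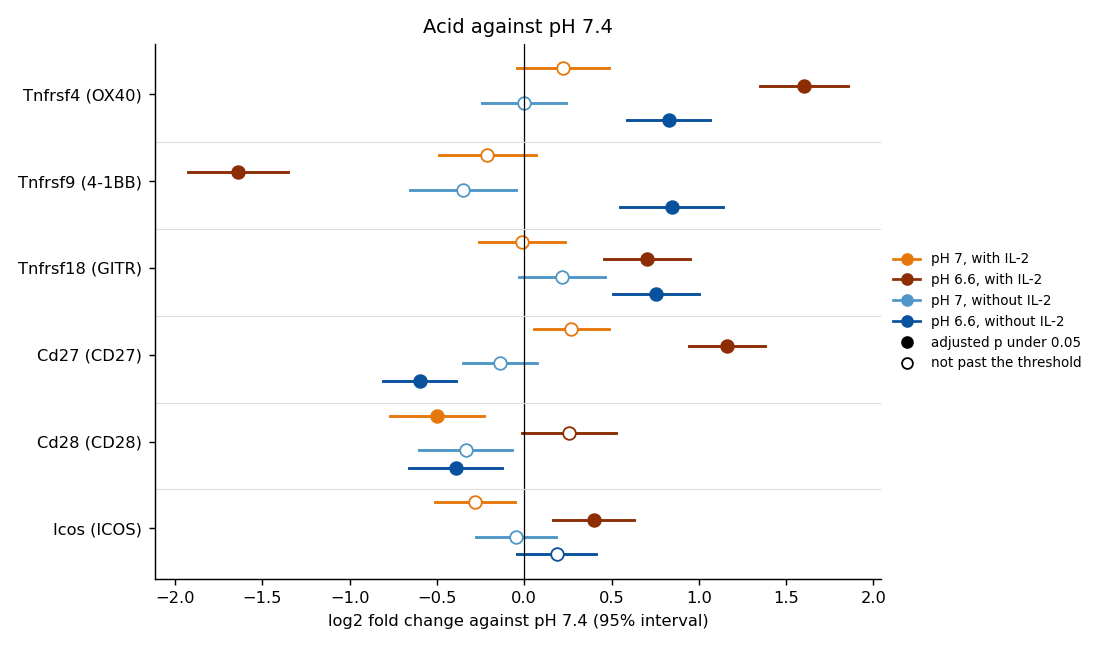
Log2 fold change of each receptor at pH 7 or pH 6.6 against pH 7.4, with IL-2 (orange, brown) and without (light and dark blue). Points are estimates, lines 95% intervals, and filled points passed an adjusted p of 0.05. At pH 6.6 Tnfrsf9 is at -1.64 with IL-2 and 0.84 without, Cd27 is at 1.16 and -0.60, and Tnfrsf18 is at 0.70 and 0.76.

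Whether the change at pH 6.6 depended on IL-2 was tested as an interaction, which 67.0% of all genes passed. Tnfrsf9 differed by -2.48 on the log2 scale (SE 0.20, adjusted p = 1.66e-12), and Cd27 by 1.76 (SE 0.15, adjusted p = 3.72e-12). For these receptors the effect of acid had opposite signs in the presence and absence of IL-2. Tnfrsf4 rose in both and differed by 0.77 (SE 0.17, adjusted p = 0.000183), and Cd28 differed by 0.65 (SE 0.19, adjusted p = 0.00275). The intervals of Tnfrsf18 (-0.40 to 0.30) and Icos (-0.11 to 0.54) included 0. For Icos the interaction passed the threshold without replicate 1 (0.32, adjusted p = 0.0156) and with only the groups compared (0.21, adjusted p = 0.0316). Replicate 1 had the lowest Icos of its group in every group except pH 7 with IL-2. At pH 7, 4.79% of all genes passed the interaction and no member did, by edgeR or by DESeq2. In edgeR the 1 member with an unadjusted p under 0.05 was Cd27 (0.41, adjusted p = 0.107).

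Acid with IL-2 was also set against neutral culture without IL-2, a comparison in which 64.4% of all genes were called. Tnfrsf9 was 8.82-fold higher in cells at pH 6.6 with IL-2 (log2 fold change 3.14, adjusted p = 1.43e-17), Tnfrsf18 1.89-fold (0.92, adjusted p = 8.39e-08) and Tnfrsf4 1.55-fold (0.64, adjusted p = 2.16e-05). Cd27 (-0.83) and Cd28 (-0.75) were lower, and Icos was at 0.04 (interval -0.19 to 0.27). Of the 6 members, 5 were thus called apart between acid cells given IL-2 and neutral cells from which it was withheld.

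Against 0 h, 24 h at pH 7.4 with IL-2 lowered 5 members, in a comparison where 59.9% of all genes were called. Tnfrsf18 fell the most, from 179, 141, 126, 127 and 182 CPM at 0 h to between 45.5 and 85.7 CPM (log2 fold change -1.30 ± 0.12, adjusted p = 9.13e-11). Tnfrsf9 was at -1.03, Cd27 at -0.93 and Tnfrsf4 at -0.78, each called. Cd28 was at -0.31 (adjusted p = 0.0406), a call that was lost in 6 alternatives, among them the fit with no replicate block (adjusted p = 0.0694) and the one without replicate 4, where it was -0.18. Icos was at -0.25 (adjusted p = 0.054). At 0 h the Icos value of replicate 1 was 65.7 CPM against 149 to 171 CPM in the other 4, and without replicate 1 the change was -0.42 (adjusted p = 7.59e-05). Without replicate 3 it was -0.16 (adjusted p = 0.311). Without IL-2, 75.2% of all genes were called against 0 h, and the members divided: Tnfrsf9 (-5.81) and Tnfrsf18 (-1.51) fell, Cd27 (1.07) and Cd28 (0.69) rose, and Tnfrsf4 (0.18) and Icos (0.10) did not pass. Without replicate 1 the value for Tnfrsf4 was 0.29 and passed (adjusted p = 0.0283). The comparisons with 0 h share the 0 h libraries.

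Ordered by group means, Tnfrsf4 was highest in the pair of groups kept at pH 6.6, whose values overlapped, and these stood apart from all other groups. Tnfrsf9 ran from 0 h through pH 7.4 and pH 7 with IL-2, which overlapped, to pH 6.6 with IL-2, pH 6.6 without IL-2, and then pH 7.4 and pH 7 without IL-2, which overlapped. Tnfrsf18 was highest at 0 h, apart from the rest, and the neighbours below that all overlapped. Cd27 and Cd28 were highest at pH 7.4 without IL-2, and in both the groups without IL-2 overlapped their neighbours in the order. For Cd28 the lowest group, pH 7 with IL-2, stood apart, and for Icos no neighbours were separate.

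Correlations over the 35 libraries, which share groups, were taken on log2 CPM with the replicate block removed. Tnfrsf9 and Cd27 had a Pearson r of -0.833, and Cd28 and Cd27 one of 0.776. Icos and Cd28 had an r of 0.769, and Tnfrsf18 and Cd27 one of -0.01. The genes whose pattern was most like each member's, by the highest r over the 35 libraries with the replicate block removed, were Myl10 (0.988) and Myc (0.987) for Tnfrsf9. They were Lgals4 (0.971) and Wdr91 (0.968) for Tnfrsf4, and Klk8 (0.94) and Lag3 (0.936) for Tnfrsf18. For Cd27 they were Appl2 and Usp35 (both 0.983), for Cd28 Rnft1 (0.934) and Dnajc1 (0.923), and for Icos Arl2bp (0.905) and Rragc (0.89). These values describe 7 groups of libraries and are not independent of the group differences above.

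The partners of the receptors were taken from 4 lists. Of the 7 ligand genes, 6 were tested, and at pH 6.6 with IL-2, against pH 7.4, 3 were higher and 2 lower (median log2 fold change 0.25, against -0.07 for all genes), where 35.4% of all genes were called higher and 40.9% lower. Tnfsf4, which encodes the ligand of OX40, rose by 1.05 on the log2 scale (adjusted p = 1.89e-07), in the same comparison in which its receptor Tnfrsf4 rose. Without IL-2, where Tnfrsf4 rose by 0.83 at pH 6.6, Tnfsf4 was at 0.23 and was not called (adjusted p = 0.17). Cd86 and Cd80, the ligands of CD28, changed by -1.21 and -0.46, at low levels. Cd70, the ligand of CD27, was among the 3 that rose and is named after its values were seen. It was at 0 CPM in all 5 libraries at pH 7.4 with IL-2 and at 0.231 to 0.759 CPM in those at pH 6.6 with IL-2. Without IL-2 it was at 0 to 0.0847 CPM at pH 7.4 and at 0.252 to 1.17 CPM at pH 6.6. In every group not kept at pH 6.6 it stayed at or under 0.117 CPM. It thus passed the filter on low counts only through the groups at pH 6.6, so its call is no separate support. These are levels of few reads. With IL-2 at pH 7.4, Tnfsf4 (-1.20) and Cd86 (-1.19) were lower, and Tnfsf9, the ligand of 4-1BB, was higher (0.90, adjusted p = 0.00667).

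Of the 10 genes of TRAF proteins and their adaptors, 7 were higher and 1 lower at pH 6.6 with IL-2, with a median of 0.51, and without IL-2 8 passed, each of them higher, with a median of 0.40. Of all genes, 76.3% passed with IL-2 (median -0.07) and 67.0% without (31.6% higher, median -0.03), so the shares called, 8 of 10 in both, were near or somewhat above those of all genes. Birc2 (cIAP1, a ubiquitin ligase bound to TRAF2) rose by 2.40, Traf1 by 1.996 and Traf5 by 1.36 on the log2 scale with IL-2, each in 5 of 5 pairs. Without IL-2, Birc2 (1.54) and Traf5 (0.83) were called higher, and Traf1 was not called (0.13, adjusted p = 0.168). Traf1 and Traf5 encode adaptors of these receptors. In the contrast of IL-2 with no IL-2 at pH 7.4, 2 of the 10 were higher and 6 lower, where 80.4% of all genes were called. Traf1 (-2.30) and Birc2 (-1.32) were among the lower, and Siva1, which encodes a protein that binds CD27, was higher (1.57).

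Of 12 genes that act close to CD28 and ICOS, 5 were higher and 2 lower at pH 6.6 with IL-2 (median 0.08), fewer than the 76.3% of all genes called. Malt1 (1.82) and Bcl10 (0.71), partners in the complex that carries the CD28 and receptor signal to NF-kB, and Pik3ca (0.76), a PI3-kinase catalytic subunit, had the largest rises. With IL-2 at pH 7.4, 2 were higher and 6 lower, beside 80.4% of all genes called. Malt1 (-1.41) and Pik3ca (-0.54) fell, and Pik3cd (0.53), the PI3-kinase subunit of leukocytes, rose. Of 17 genes listed here as other costimulatory receptors, 14 were tested. The list was not divided by whether a receptor activates or inhibits T cells. At pH 6.6 with IL-2, 7 of these rose and 5 fell (median 0.26), beside 76.3% of all genes called. Tnfrsf8 (CD30) was at -2.17, Cd160 at -1.47 and Slamf1 at 0.84. Tnfrsf25 (DR3), named after its values were seen, was at 2.68 (adjusted p = 4.75e-06), at a level under 1 CPM, with 0.0347 to 0.164 CPM at pH 7.4 with IL-2 and 0.333 to 0.545 CPM at pH 6.6 with IL-2. With IL-2 at pH 7.4, 4 were higher and 7 lower, beside 80.4% of all genes called. Tnfrsf8 rose by 4.67 on the log2 scale (adjusted p = 1.87e-19), a size close to that of Tnfrsf9, Cd160 rose by 0.89 and Tnfrsf14 (HVEM) was at -1.93. At pH 7 with IL-2, 1 ligand gene, 2 TRAF or adaptor genes and 4 of the other receptors were called higher, and 1 of the other receptors lower, where 19% of all genes were called. Of the 12 genes close to CD28 and ICOS, 0 were called by edgeR, with 0.191 the lowest adjusted p (Prkcq, log2 fold change -0.11).

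**Figure D5:**
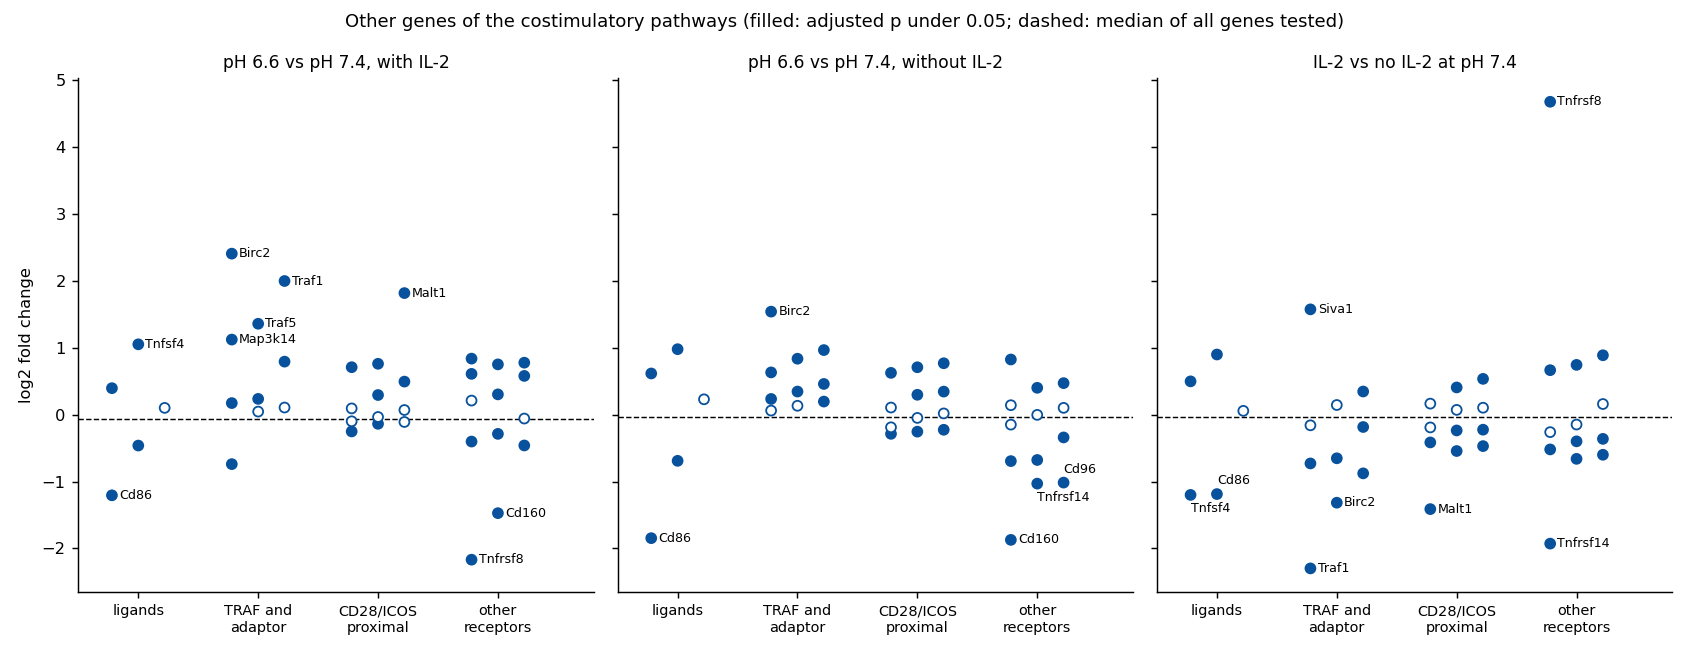
Log2 fold change of the tested genes whose mean log2 CPM was 1 or more, in 4 lists (ligands, TRAF and adaptor genes, genes close to CD28 and ICOS, other costimulatory receptors) in 3 comparisons. Filled points passed an adjusted p of 0.05, genes beyond 1 in size are named, and the dashed line is the median of all genes tested. Birc2, Traf1 and Malt1 are at 2.40, 1.996 and 1.82 in the first panel and at -1.32, -2.30 and -1.41 in the third.

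Marker lists of other cells moved with the groups. The summed level of the CD4 and regulatory T cell list (5 genes) was 26.3 to 38.2 CPM at pH 7.4 with IL-2, 112 to 175 CPM at pH 6.6 with IL-2 and 124 to 177 CPM at pH 7.4 without IL-2, alongside Cd27 and Tnfrsf4, but most of it was Ikzf2 and Zbtb7b. Cd4 itself was at or under 2.483 CPM and Foxp3 at or under 5.496 CPM in every library, with the highest Foxp3 values at 0 h (median 3.417 CPM), and Foxp3 at pH 6.6 with IL-2 did not exceed 0.458 CPM. The NK list (4 genes) summed to 597 to 706 CPM at pH 7.4 with IL-2 and 168 to 186 CPM without, mainly through Eomes, which effector CD8+ T cells also express. In that list Klrb1c was at up to 94.9 CPM, and Ncr1 never exceeded 0.0694 CPM. The myeloid and dendritic list (6 genes) summed to 10.1 to 13.2 CPM at pH 7.4 with IL-2 and 25.6 to 41.8 CPM at pH 6.6 with IL-2, through Cd68 and Itgax, and the B cell list (5 genes) never exceeded 6.101 CPM. The CD8 list (7 genes) summed to 9717 to 12400 CPM at pH 7.4 with IL-2, 3251 to 4662 CPM at pH 6.6 with IL-2 and 2529 to 3385 CPM in the groups without IL-2. Cd8a had medians of 860, 1358 and 1095 CPM at pH 7.4, pH 7 and pH 6.6 with IL-2 and of 910.3, 956 and 687 CPM without, while Gzmb, a cytolytic granule gene, ran from 36.7 to 9006 CPM. The part of these other cells in the receptor values was not tested beyond these levels.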

How the data were processed

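RNA-seq was measured in 35 libraries of OT-I CTLs, in 7 groups of 5 replicates. The authors made stranded polyadenylated RNA libraries, and the tools listed in the submitters' processing notes are cutadapt 1.8, STAR 2.5.2b and HTSeq 0.6.1, with the build GRCm38. The deposited values are raw counts of reads per gene, without normalization. The annotation release, read length and strand setting are not given in the sources used here. Reads with more than one alignment were left uncounted, as were reads in no gene or in several genes. The closing rows for these held medians of 37.1% (32.8% to 48.26% by library), 7.424% and 0.9215% of the total over all rows. These are not necessarily shares of reads. Those closing rows were left out of library sizes. Symbols matched 48349 of 48709 identifiers, in GENCODE M21.

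Tests used edgeR 4.0.16 in R 4.3.3. The filter filterByExpr, at a minimum count of 10, left 13819 genes, and the model applied TMM factors (0.9263 to 1.08) and was 1 robust quasi-likelihood fit over all 35 libraries, with the groups and the replicate number as a block (biological coefficient of variation 0.12). The standard errors and 95% intervals were computed from its F statistics. p-values were adjusted by Benjamini-Hochberg over all genes, with a threshold of 0.05. CPM are on TMM library sizes. Outlying libraries were sought with Dixon's test.

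The paper names paired tests, so the block was used. Libraries that share a number deviated together from the means of their groups, with r over 0.1 in 95 of 105 pairs (median 0.273, against -0.0745 for other pairs). The 70 pairs of libraries within groups all differed by more than sampling noise (lowest chi-square per degree of freedom 6.24). The script was checked on simulated counts of known fold change.

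All members are named, and from each of the 4 lists up to 3 genes past the threshold with the largest change in each of 2 comparisons (acid with IL-2, and IL-2 at pH 7.4) at a mean log2 CPM of at least 1. For each member, the 2 genes with the highest correlation at a mean log2 CPM of at least 3 are named. The members and lists were chosen with earlier results of these data known. Tnfsf18, Cd40lg and Havcr1 did not pass the filter and Tmigd2 matched no symbol. Alternatives were RLE normalization, DESeq2 1.42.0, no filter, a filter of 10 counts in each of the 35 libraries, fitting only the groups compared, no block, and leaving out each replicate number.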

Additional observations from a re-analysis of the deposited data

Results flagged for a closer look

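In 4 of the 42 sets of 5 libraries (6 receptors in 7 groups), 1 library stood far from the other 4. Chance gives such a library in about 1 in 20 sets. Icos at 0 h was 65.67 CPM in replicate 1, against 149.2 to 171.4 CPM in the others, and Cd27 in the same library was 96.13 CPM against 53.78 to 63.47 CPM. Icos at pH 7.4 with IL-2 was 97.95 CPM in replicate 1, against 116.6 to 122.1 CPM. Tnfrsf4 at pH 7 without IL-2 was 8.184 CPM in replicate 5, against 6.141 to 6.407 CPM.

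For 4 of the 6 receptors the effect of pH 6.6 differed between cells with and without IL-2, by the interaction test of the edgeR model. Of all genes tested, 67.0% passed this test, so the share of receptors called was near that of all genes. On the log2 scale the difference was -2.48 for Tnfrsf9 (adjusted p = 1.66e-12), 1.76 for Cd27 (adjusted p = 3.72e-12), 0.77 for Tnfrsf4 (adjusted p = 0.000183) and 0.65 for Cd28 (adjusted p = 0.00275), each with that sign in 5 of 5 replicate numbers.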

How the results depend on the processing

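Over the 72 log2 fold changes of the 6 receptors in 12 comparisons, each under 11 alternatives, 746 values kept their direction and their side of the threshold, 21 newly passed it, 16 no longer passed it and 9 changed sign. The changes of sign concerned values that were not called: Tnfrsf18 at pH 7 with IL-2 (0.013 with only the groups compared, and -0.11 to 0.13 when 1 replicate number was left out), Tnfrsf18 with IL-2 at pH 7 (0.0078 with no filter, and -0.099 to 0.091) and in the interaction at pH 6.6 (0.0028 with at least 10 counts in every library, and -0.11 to 0.049), and Tnfrsf4 at pH 7 without IL-2 (-0.070 to 0.092). Members called at pH 7 with IL-2 were 1 in all 35 libraries, 4 with only the groups compared and 0 to 2 with a replicate left out. At pH 7 without IL-2 they were 0, and 3 with only the groups compared. With IL-2 at pH 6.6 they were 2, and 1 under RLE, no filter, no replicate block or DESeq2, 4 with only the groups compared, and 1 to 2 with a replicate left out. In the interaction at pH 7 they were 0, and 1 with only the groups compared. All genes called at pH 7 with IL-2 were 2623, and 1660 with no replicate block, 4388 with only the groups compared and 1283 to 2425 with a replicate left out. At pH 7 without IL-2 they were 232, and 56, 942 and 35 to 332 in that order. With IL-2 at pH 6.6 they were 3278, and 5369 with only the groups compared and 2119 to 2630 with a replicate left out. In the interaction at pH 7 they were 662, and 326 with no filter, 177 with no replicate block, 1632 with only the groups compared, 1016 by DESeq2 and 98 to 711 with a replicate left out. The cause was not tested. Fits of fewer libraries also estimate the spread from fewer samples. No other comparison of the 12 lost or gained members or genes by more than 1.5 times.

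The lowest count of a member was 73 (Tnfrsf4 at pH 7.4 with IL-2), so for Tnfrsf4 counting error can make up much of the spread between replicates. The model describes transcripts, in living cells, at 1 time after the change of pH.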
